A study of Mus musculus with 8 samples.

Results

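Osteoblasts lay down the collagen matrix of bone and mineralize it, and osteocytes are the osteoblasts that become buried in that matrix. 10 genes that mark these cells were followed in the auditory nerve of the mouse: Runx2, Sp7, Alpl, Phex, Bglap, Bglap2, Ibsp, Dmp1, Mepe and Spp1. They were taken by symbol from a deposited table of 15035 genes, and all 10 were found. The nerve runs through the modiolus, the bony core of the cochlea, so a dissected nerve can carry bone with it. Runx2 and Sp7 are the transcription factors that commit cells to the osteoblast lineage. Alpl then frees phosphate for mineral, and the secreted matrix proteins take up calcium. Mef2c, the gene changed in these mice, encodes a MADS-box transcription factor that acts in bone as well as in nerve, and in osteocytes it is known to drive Sost, an inhibitor of bone formation.

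The libraries came from auditory nerves of mice at postnatal day 21, 4 labelled wild type (replicates 1 to 4) and 4 labelled Mef2c heterozygote (replicates 5 to 8). Both cochleas (2) of a mouse gave 1 pooled nerve sample, so the animal is the replicate. Strain, sex, the Mef2c allele and any Cre or promoter were not given in the sources used here, so no statement is made on which cells lost a copy. Values are normalized counts, that is, reads per gene divided by a factor for each library. Estimated reads ran from 13363385 to 21507209 per library, and 3 reads corresponded to 2.37 to 3.89 normalized counts, far under the lowest value of any of the 10 genes, 124.7. The Mef2c transcript was at 402.2 to 508.7 normalized counts in wild type and at 583.3 to 735.1 in the heterozygote-labelled libraries, higher in all 4, which goes against the label. Directions below are therefore between libraries as labelled. The neuron marker Nefl, a neurofilament subunit, was high in every library (33661.5 to 42068.7), as the tissue label implies. Xist, the RNA of the inactive X chromosome, was nearly lacking from wild-type library 1 (12.0) and heterozygote-labelled library 5 (7.6) and at 5175 to 8615 elsewhere, and no label gives sex.

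The stretch just before the start of each gene is shown for 4 of the genes, because RUNX2 is known to act on bone gene promoters through the letters ACCACA. RefSeq promoter windows of the build GRCm38.p6 were matched for 8 of the 10 genes, with 11 windows in all. Each sequence is the 250 bases before the annotated start, read 5′ to 3′ on the strand of the gene, and the capitals mark ACCACA or its reverse complement TGTGGT. Where a gene has several annotated starts, as Dmp1 and Spp1 do, the window with a match is shown.
Bglap (chr3:88384467-88384716, minus strand): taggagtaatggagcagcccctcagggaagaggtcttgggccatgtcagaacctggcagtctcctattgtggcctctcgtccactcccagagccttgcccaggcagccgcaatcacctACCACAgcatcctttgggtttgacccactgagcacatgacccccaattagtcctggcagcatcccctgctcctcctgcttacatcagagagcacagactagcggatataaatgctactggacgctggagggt
Dmp1 (chr5:104202367-104202616, plus strand): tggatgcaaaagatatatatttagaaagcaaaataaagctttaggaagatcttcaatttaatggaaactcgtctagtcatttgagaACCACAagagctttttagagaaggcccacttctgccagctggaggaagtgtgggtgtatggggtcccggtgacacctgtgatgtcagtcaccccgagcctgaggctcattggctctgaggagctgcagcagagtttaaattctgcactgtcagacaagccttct
Mepe (chr5:104325079-104325328, plus strand): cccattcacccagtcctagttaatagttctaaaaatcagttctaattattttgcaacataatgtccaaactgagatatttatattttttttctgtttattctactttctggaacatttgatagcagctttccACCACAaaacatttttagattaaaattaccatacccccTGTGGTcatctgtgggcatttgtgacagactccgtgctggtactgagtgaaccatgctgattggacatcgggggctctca
Spp1 (chr5:104434861-104435110, plus strand): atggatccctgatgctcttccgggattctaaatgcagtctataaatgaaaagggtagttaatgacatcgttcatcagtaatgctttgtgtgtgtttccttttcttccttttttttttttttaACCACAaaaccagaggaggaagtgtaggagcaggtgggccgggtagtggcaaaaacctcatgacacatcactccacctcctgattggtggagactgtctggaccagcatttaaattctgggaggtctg
The match began 132 bases before the start in Bglap, 164 in Dmp1, 128 in Spp1, and 118 and 80 in Mepe. Runx2 itself also held a match, so 5 of the 8 genes, and 5 of their 11 windows, had one. Of all 32851 windows of this length, 14.0% held the letters on either strand. The letters TATAAA of a TATA box, searched on the strand of the gene, began 27 bases before the start in Bglap and 211 bases before it in Spp1, and were in 7.59% of all windows. A TATA box lies close to the start, which the match in Spp1 does not. The AP-1 letters TGANTCA, searched on both strands, were in none of the 11 windows and in 6.75% of all windows. These are matches of letters, and binding was not measured.

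The genes lie on 6 chromosomes of mouse GRCm38 (GENCODE M21). Dmp1 (chromosome 5, 104202613 to 104214102), Ibsp (104299171 to 104311469), Mepe (104325329 to 104338611) and Spp1 (104435118 to 104441050) are neighbours on 1 strand. They belong to the SIBLING family of acidic, integrin-binding matrix proteins, and Ibsp and Mepe are 13859 bases apart. Bglap (chromosome 3, 88383501 to 88384464) and Bglap2 (88377736 to 88378699) are copies of the osteocalcin gene on the minus strand, with 4801 bases between them and the third copy, Bglap3, 4992 bases beyond. Runx2 lies on chromosome 17 (44495987 to 44814797), Sp7 on 15 (102356606 to 102367182), Alpl on 4 (137741733 to 137796384) and Phex on X (157162075 to 157415312). All 4 of these are on the minus strand.

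**Figure D1:**
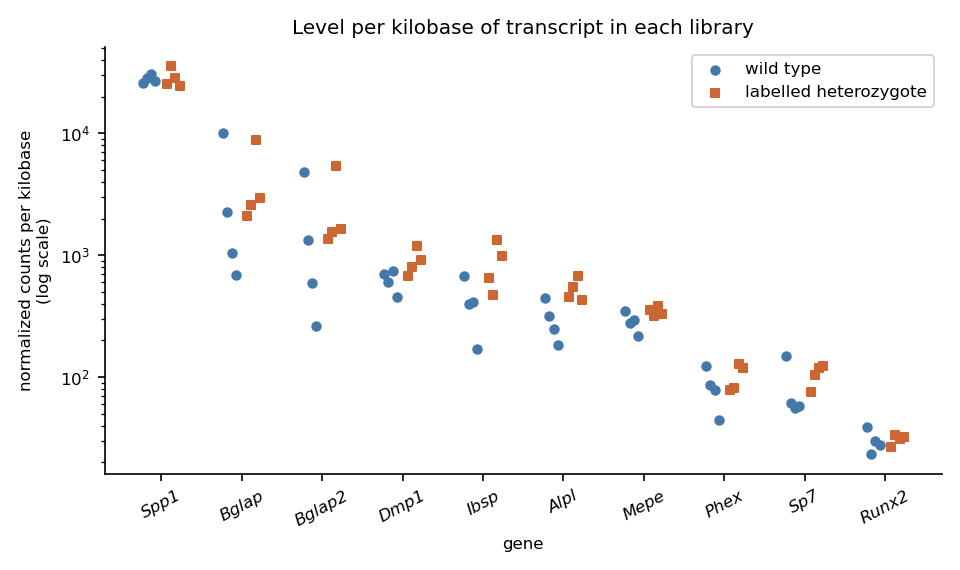
Normalized counts per kilobase of the longest annotated transcript (y axis, log scale) for the 10 genes (x axis), with 1 point per library, circles for wild type and squares for heterozygote-labelled libraries. Spp1 lies above every other gene in every library, and Runx2 is lowest.

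Levels between genes were compared per kilobase of the longest transcript. Spp1, which encodes the secreted phosphoprotein osteopontin, was the highest, at 28037 ± 2257 normalized counts per kilobase in wild type and 28380 ± 4909 in the heterozygote-labelled libraries (SD, n = 4 each). In wild type it was followed by Bglap (3489 ± 4390), Bglap2 (1744 ± 2081), Dmp1 (627.4 ± 129.2), Ibsp (416.3 ± 207.1) and Alpl (298.0 ± 112.4; SD, n = 4 each). Mepe (283.6 ± 52.8), Phex (83.0 ± 31.9), Sp7 (81.2 ± 45.7) and Runx2 (30.0 ± 6.69) came last on the same scale. From Bglap down to Bglap2, from Bglap2 to Dmp1, from Ibsp to Alpl, from Alpl to Mepe and from Phex to Sp7, the step in wild type was smaller than the larger SD of the pair. Spp1 made up 0.222% to 0.312% of all normalized counts in a library, and the other 9 genes together 0.0205% to 0.0966%. Spp1 is also known to be made by glia, neurons and macrophages, so its level here is not a measure of bone alone.

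**Figure D2:**
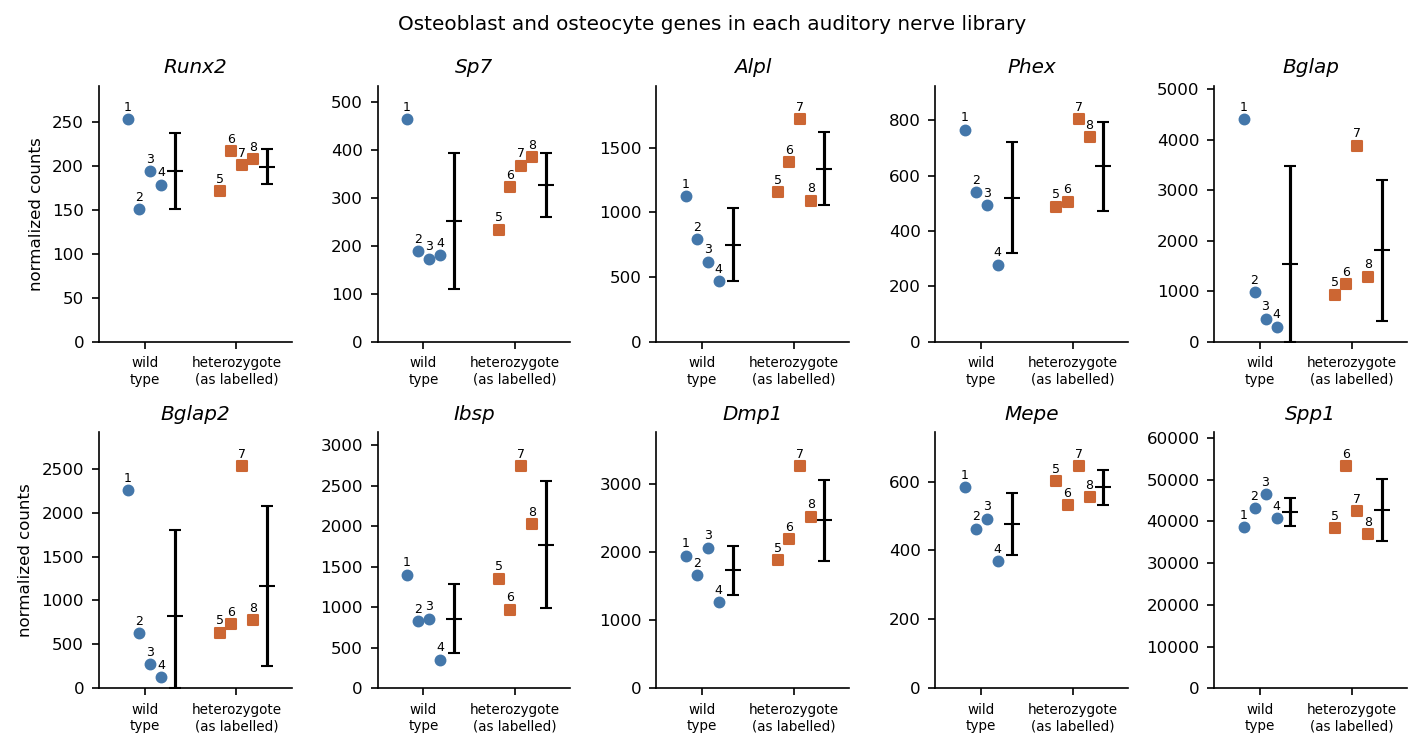
Normalized counts (y axis, from 0) of the 10 genes in each library, with the library number above each point, circles for wild type and squares for heterozygote-labelled libraries. Bars give the mean ± SD of 4 libraries and stop at 0 for Bglap and Bglap2 in wild type, where the SD exceeds the mean. In every gene the groups overlap. Wild-type library 1 is the highest of the 8 in Sp7, Runx2 and Bglap, and heterozygote-labelled library 7 in 6 of the other 7.

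The comparison asked which of these genes differed between heterozygote-labelled libraries and wild type. In limma-trend, 0 of the 10 passed a Benjamini-Hochberg adjusted p of 0.05 over 14870 tested genes, of which 0.0807% passed (0.00672% as higher). All 10 were among the genes tested. At an unadjusted p under 0.05 there were 3, Alpl, Ibsp and Dmp1, all higher in the heterozygote-labelled libraries, against 6.72% of tested genes called in that direction and 14.1% in either. The log2 fold change was above 0 in all 10 genes, against 52.3% of tested genes, but that of Spp1 turned negative with upper-quartile scaling (-0.010) and that of Runx2 with a correction for transcript length (-0.087). The median log2 fold change of the 10 was 0.49, from 0.01 for Spp1 to 1.09 for Ibsp, and that of all tested genes was 0.02. In 0 of the 10 genes were the groups apart, against 7.26% of tested genes apart and 3.4% apart with the higher values in the heterozygote-labelled group. In bulk tissue, more cells of a type and more RNA per cell cannot be told apart, and how much bone stayed on each nerve was not measured.

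Neither lineage factor passed the test. Runx2, the factor that starts osteoblast differentiation, was at 253.1, 150.6, 194.3 and 178.8 normalized counts in wild-type libraries 1 to 4, and at 171.6, 217.0, 200.7 and 208.1 in heterozygote-labelled libraries 5 to 8. The wild-type libraries spanned the whole range of the others. Its log2 fold change was 0.06 ± 0.19 (SE), the adjusted limma p was 0.909, and the 95% interval of the difference ran from -0.37 to 0.48. Sp7, or osterix, which acts after Runx2, was at 463.3, 189.3, 173.2 and 180.0 in wild type and at 233.5, 322.4, 366.6 and 384.4 in the heterozygote-labelled libraries. All 4 of the latter lay above wild-type libraries 2 to 4, and wild-type library 1 lay above all of them. The log2 fold change of Sp7 was 0.49 ± 0.30 (SE), with an adjusted limma p of 0.464, and without wild-type library 1 it was 0.83, with an adjusted limma p of 0.139.

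Of the enzymes, Alpl had the larger log2 fold change. Alpl, tissue-nonspecific alkaline phosphatase, which breaks down the mineral inhibitor pyrophosphate, was at 1126.5, 793.3, 620.6 and 466.2 normalized counts in wild type. In the heterozygote-labelled libraries it was at 1154.7, 1390.6, 1718.9 and 1089.5. Only heterozygote-labelled library 8 fell below the highest wild-type library, so 3 of 4 lay above all of wild type. The mean went from 752 ± 283 to 1338 ± 285 (SD, n = 4 each). On the log2 scale the difference was 0.88 ± 0.23 (SE), with a 95% interval of 0.37 to 1.40 and an adjusted limma p of 0.220. The two-sided exact permutation p was 0.0571, where 4 against 4 can give no less than 0.0286. The authors' deposited table gave Alpl a ratio of 1.78 with an FDR of 0.0378, the only one of the 10 genes with an FDR under 0.05, against 1.61% of the genes there (0.672% higher). Phex, the X-linked endopeptidase whose loss causes phosphate wasting and soft bone, was at 765.7, 540.9, 494.1 and 279.0 in wild type and 487.7, 506.2, 802.9 and 739.8 in the heterozygote-labelled libraries. Its groups overlapped widely, and its log2 fold change of 0.34 ± 0.27 (SE) had an adjusted limma p of 0.568. With 1 library left out, the log2 fold change of Phex ran from 0.07 (wild-type library 4 left out) to 0.55 (wild-type library 1 left out).

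The osteocalcin genes encode the small calcium-binding protein of mature osteoblasts, and they spread more between libraries than any of the other 8 genes. Bglap was at 4398.6, 987.6, 454.6 and 300.5 normalized counts in wild type, and at 930.0, 1134.5, 3875.5 and 1287.5 in the heterozygote-labelled libraries. Bglap2 was at 2257.5, 625.8, 277.8 and 124.7 in wild type, and at 634.1, 728.9, 2531.7 and 774.2 in the heterozygote-labelled libraries. Wild-type library 1 and heterozygote-labelled library 7 were far above the rest in both genes. The highest wild-type library was 14.6-fold above the lowest in Bglap and 18.1-fold in Bglap2, against 1.2-fold in Spp1 and 1.64-fold in Dmp1. The log2 fold changes were 0.79 ± 0.69 for Bglap and 1.05 ± 0.72 for Bglap2 (SE), with adjusted limma p of 0.608 and 0.512. Without wild-type library 1 they were 1.56 and 1.80, with adjusted limma p of 0.225 and 0.218, and without wild-type library 4 they were 0.27 and 0.41. In the authors' deposited table the ratios were 1.18 and 1.42, with FDRs of 0.934 and 0.833.

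The split between the osteocalcin copies is uncertain. Their longest annotated transcripts, of 440 and 471 bases, matched at 434 of 439 aligned bases (98.9%), with an unbroken identical run of 241 bases. Among values under 1000 normalized counts, where whole reads can be told, Bglap was a whole multiple of 1 read in 1 of 4 libraries and Bglap2 in 0 of 6. Sp7, Ibsp, Alpl, Runx2, Phex and Mepe were whole multiples in every such library (8, 4, 3, 8, 8 and 8 libraries). The tolerance was the rounding of the table, 0.05 normalized counts. Bglap exceeded Bglap2 in all 8 libraries, by 1.47-fold to 2.41-fold. Bglap3 was at 6.4 to 140.6 normalized counts, and the authors' deposited table gave no p-value for it.

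Of the acidic matrix proteins, bone sialoprotein and Dmp1 showed the larger differences, and Mepe and Spp1 the smaller ones. Ibsp, or bone sialoprotein, which seeds mineral crystals, was at 1401.6, 830.3, 858.0 and 353.9 normalized counts in wild type, and at 1352.3, 970.6, 2744.2 and 2025.2 in the heterozygote-labelled libraries. Libraries 7 and 8 lay above all of wild type, and libraries 5 and 6 lay below wild-type library 1. The mean went from 861 ± 428 to 1773 ± 781 (SD, n = 4 each), with a log2 fold change of 1.09 ± 0.38 (SE), a 95% interval of 0.25 to 1.93 and an adjusted limma p of 0.278. Without wild-type library 4 the log2 fold change of Ibsp was 0.72. The authors' deposited table gave Ibsp a ratio of 2.06 and an FDR of 0.267.

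Dmp1, dentin matrix protein 1, is made by osteocytes and restrains the phosphate hormone FGF23. It was at 1946.7, 1659.9, 2066.1 and 1263.4 normalized counts in wild type, and at 1878.0, 2194.8, 3266.4 and 2519.3 in the heterozygote-labelled libraries. Library 5 was the only one labelled heterozygote within the wild-type range. The log2 fold change of Dmp1 was 0.50 ± 0.18 (SE), with a 95% interval of 0.11 to 0.90, an adjusted limma p of 0.283 and a two-sided exact permutation p of 0.0857. Mepe, an osteocyte protein whose acidic peptide inhibits mineralization, was at 584.0, 463.7, 492.2 and 368.4 in wild type, and at 601.8, 532.4, 645.5 and 554.1 in the heterozygote-labelled libraries. Its libraries differed by little, and 2 of the 4 labelled heterozygote lay above all of wild type. The log2 fold change of Mepe was 0.31 ± 0.15 (SE), with a 95% interval of -0.02 to 0.63 and an adjusted limma p of 0.373, and it was 0.19 without wild-type library 4. Dmp1 and Mepe kept a narrow ratio within libraries, Mepe being 0.198 to 0.320 of Dmp1, while Bglap ranged from 0.220 to 2.26 of Dmp1.

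Spp1 stood apart from its neighbours. It was at 38591.9, 43201.8, 46501.2 and 40714.5 normalized counts in wild type, and at 38399.7, 53306.7, 42422.3 and 36943.4 in the heterozygote-labelled libraries. The highest and the lowest of the 8 values were both in heterozygote-labelled libraries, 6 and 8. Its log2 fold change was 0.01 ± 0.14 (SE), with an adjusted limma p of 0.989 and a 95% interval of -0.31 to 0.32. In the authors' deposited table its ratio was 1.01.

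**Figure D3:**
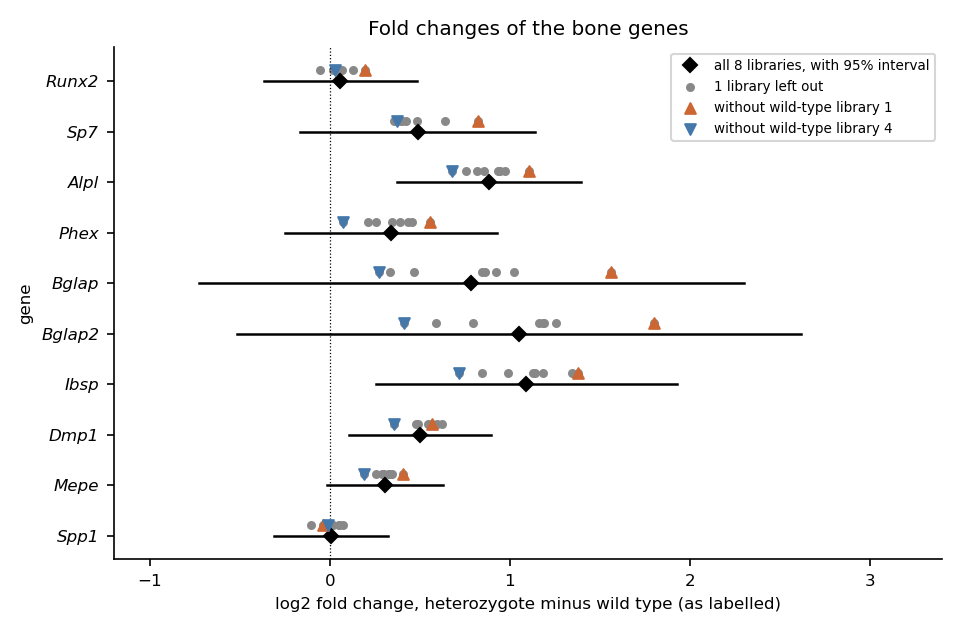
Log2 fold change of each gene (x axis, heterozygote-labelled minus wild type) with all 8 libraries (diamond, line for the limma 95% interval) and with 1 library left out (points above the line). The intervals of Alpl, Ibsp and Dmp1 lie above 0, and for Bglap and Bglap2 the values without wild-type library 1 (1.56 and 1.80) and without wild-type library 4 (0.27 and 0.41) are far apart.

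Single libraries carried much of the spread. Wild-type library 1 was the highest wild-type library in 8 of the 10 genes, all but Dmp1 and Spp1, and wild-type library 4 the lowest in 7. Heterozygote-labelled library 7 was the highest of its group in 7 genes and library 5 the lowest in 6. Relative to the wild-type mean, the median deviation over the 10 genes on the log2 scale was 0.65, 0.07, 0.02 and -0.52 in wild-type libraries 1 to 4. It was 0.11, 0.35, 0.83 and 0.58 in heterozygote-labelled libraries 5 to 8, while the median over all tested genes lay between 0.00 and 0.02 in every library. Leaving out the highest wild-type library of a gene raises its fold change by construction. Without wild-type library 1, 8 of the 10 genes had an unadjusted limma-trend p under 0.05 (all but Runx2 and Spp1). In that fit 1774 of all 14870 tested genes did. After adjustment 0 of the 10 passed, and the smallest adjusted limma p among them was 0.0532, for Alpl. Without heterozygote-labelled library 7 there was 1 at an unadjusted p under 0.05, Alpl, against 1610 of all tested genes. Without wild-type library 4 there were 2, Alpl and Ibsp, against 1451. Wild-type library 1 and heterozygote-labelled library 5 are also the libraries low in Xist. Without both, the same 8 genes had an unadjusted limma-trend p under 0.05, against 2012 of all tested genes. That fit drops the highest wild-type library of 8 genes and the lowest heterozygote-labelled library of 6. Each removal raises the fold changes of those genes by construction. The median log2 fold change of the 10 was then 0.83, again with 0 of them past the adjusted threshold. Among them the smallest adjusted limma p was 0.0710, for Sp7. There is 1 library low in Xist in each group, so no comparison can be made among such libraries.

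**Figure D4:**
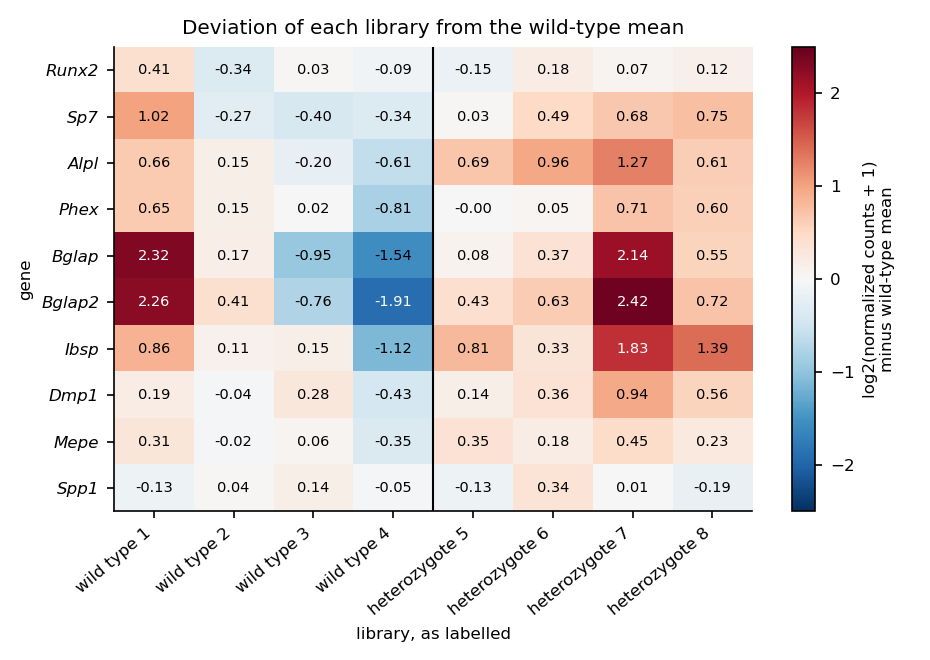
Deviation of each library from the wild-type mean as log2(normalized counts + 1) for each gene (rows) and library (columns, wild type left of the line), with values printed in the cells. Wild-type library 1 and heterozygote-labelled library 7 are high in Bglap (2.32 and 2.14) and Bglap2 (2.26 and 2.42), wild-type library 4 is low in both (-1.54 and -1.91), and the row of Spp1 stays between -0.19 and 0.34.

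Likeness between genes was described by Pearson's r over the 8 libraries after the mean of each genotype was removed, which leaves the variation within groups. With the mean profile of the other bone genes (Spp1 left out), r was 0.95 for Bglap2, 0.94 for Bglap, 0.93 for Phex, 0.88 for Ibsp, 0.88 for Alpl and 0.86 for Mepe. The profile for Bglap holds Bglap2 and the reverse. The split of reads between them is uncertain, so both of their values are partly built in. The mean profile was furthest from 0 in wild-type libraries 1 (0.67) and 4 (-0.57) and heterozygote-labelled library 7 (0.37). The r was 0.81 for Sp7, 0.74 for Dmp1, 0.56 for Runx2 and -0.17 for Spp1. Outside the 10 genes, the 8 most like the mean profile of the 9 genes without Spp1 were Col22a1 (0.98), Rbm12 (0.97), Exoc3l4 (0.97), 1110004F10Rik (0.97), 4930556M19Rik (0.97), Ube2c (0.97), Serpinb9 (0.97) and Sp3os (0.96). Of 14860 genes, 93 (0.626%) had an r above 0.9, so values this high are not rare among so many genes. Col22a1, which encodes a collagen, was at 362.1, 63.9, 70.6 and 35.0 normalized counts in wild type and at 140.1, 156.0, 365.6 and 224.1 in the heterozygote-labelled libraries. It had the same high libraries as osteocalcin, 1 and 7, which its choice by likeness to a profile holding both osteocalcin genes builds in. The 3 genes most like Spp1 were Pfkfb3 (0.98), Pias3 (0.96) and Mlph (0.95), and 24 genes had an r above 0.9 with it. Mlph had only 13.0 to 76.7 normalized counts. Ube2c was lower still, at 1.2 to 41.5, and its 1.2 in wild-type library 4 is about 1 read.

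Other genes of bone were read from 5 lists with 91 genes, of which 83 were tested. 1 of them, Smpd3, rose with an adjusted limma p under 0.05, and 18 had an unadjusted p under 0.05 and were higher in the heterozygote-labelled libraries and 3 were lower. Over all tested genes, 6.72% were higher at that p, 14.1% differed in either direction, and 0.00672% rose past the adjusted threshold. The median log2 fold change of the 83 was 0.20. These lists, like the 10 genes, were drawn up with results of these data known.

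Of bone matrix proteins, 17 of 19 were tested and 0 passed, with 6 higher at an unadjusted p under 0.05 (6.72% of all tested genes), 0 lower and a median log2 fold change of 0.27. Col1a1, a chain of type I collagen and the main protein of bone matrix, was at 8422.5, 2854.6, 2349.3 and 2181.4 normalized counts in wild type. In the heterozygote-labelled libraries it was at 4920.6, 7332.9, 11748.6 and 6924.2. The highest wild-type library was again library 1 and the highest of the others library 7. Col1a1 had a log2 fold change of 1.14 ± 0.38 (SE) and an adjusted limma p of 0.266. Omd, or osteomodulin, a small proteoglycan of mineralized matrix, was at 233.1 to 364.3 in wild type and 406.0 to 711.5 in the heterozygote-labelled libraries, without overlap. Omd was the only 1 of the 17 apart, against 3.4% of all tested genes apart in that direction. Its log2 fold change was 0.79 ± 0.21 (SE), with an adjusted limma p of 0.222.

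Of genes for mineralization and phosphate handling, 11 of 13 were tested, and 1 passed, against 0.0807% of all tested genes (0.00672% as higher). At an unadjusted limma p under 0.05, 3 were higher and 0 lower, against 6.72% of all tested genes higher and 14.1% in either direction. Smpd3, a neutral sphingomyelinase needed for bone mineralization, was at 855.2, 663.2, 702.1 and 630.5 normalized counts in wild type. In the heterozygote-labelled libraries it was at 1517.5, 1038.6, 1450.3 and 1533.9. Its log2 fold change was 0.95 ± 0.14 (SE), with an adjusted limma p of 0.0420. The authors' deposited table gave Smpd3 a ratio of 1.94 with an FDR of 1.71e-06. Wild-type library 1, high in osteocalcin, lay below all 4 heterozygote-labelled libraries in Smpd3. Library 5, the lowest of its group in 6 of the 10 bone genes, was at 1517.5. Which cells of the nerve made Smpd3 was not measured. The call of Smpd3 was lost in 8 of 17 alternative settings, with an adjusted limma p of up to 0.229, among them the fits without wild-type library 2 or 4 or heterozygote-labelled library 5, 7 or 8. The median log2 fold change of this list was 0.12.

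Of osteoblast transcription factors, 15 of 16 were tested and 0 passed, with 2 higher and 1 lower at an unadjusted p under 0.05 and a median log2 fold change of 0.34. These 3 of 15 are near the 14.1% of all tested genes at that p. Dlx3, a homeobox factor, was at 75.3, 35.5, 34.8 and 4.8 in wild type and 44.5, 76.7, 99.9 and 81.6 in the heterozygote-labelled libraries, with an adjusted limma p of 0.355.

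Of further osteocyte genes, 15 of 17 were tested and 0 passed, with 2 higher and 1 lower at an unadjusted p under 0.05 and a median log2 fold change of 0.18. This count, too, is near the 14.1% of all tested genes. Fgf23, the phosphate hormone, was low, at 10.9 to 93.5 normalized counts in wild type and 48.9 to 73.2 in the heterozygote-labelled libraries. Tmem119, a membrane protein of osteoblasts and microglia, was at 392.3 to 737.1 in wild type and 643.0 to 928.2 in the heterozygote-labelled libraries, with an adjusted limma p of 0.266. Sost, named here after its values were seen because Mef2c is known to act on it, was at 563.2, 488.1, 754.4 and 329.7 in wild type. In the heterozygote-labelled libraries Sost was at 551.8, 717.1, 1052.6 and 816.7, with a log2 fold change of 0.58 ± 0.24 (SE) and an adjusted limma p of 0.329.

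Of the BMP and Wnt signals that act on osteoblasts, 25 of 26 were tested and 0 passed, with 5 higher and 1 lower at an unadjusted p under 0.05 (6.72% of all tested genes higher, 14.1% in either direction) and a median log2 fold change of 0.14. Bmp2, a ligand that induces bone, was at 134.1 to 211.7 normalized counts in wild type and 244.4 to 289.3 in the heterozygote-labelled libraries, without overlap. It was the only 1 of the 25 apart, against 3.4% of all tested genes apart in that direction. Bmp2 had a log2 fold change of 0.74 ± 0.19 (SE), with an adjusted limma p of 0.211. Bmp3, a ligand that restrains bone density, was at 64.0 to 369.9 in wild type and 189.0 to 334.5 in the heterozygote-labelled libraries, with an adjusted limma p of 0.382.

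**Figure D5:**
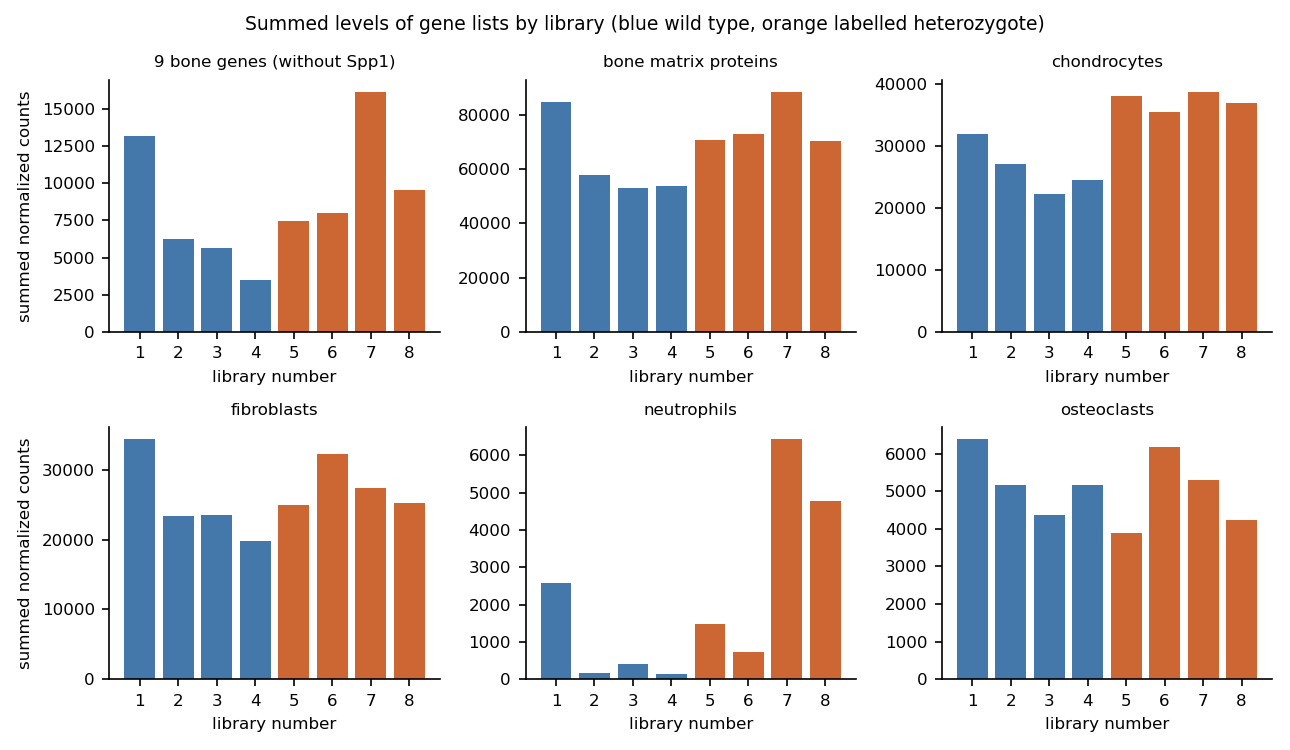
Summed normalized counts (y axis, from 0) of 6 gene lists in each library (x axis, library number), blue for wild type and orange for heterozygote-labelled libraries. Wild-type library 1 and heterozygote-labelled library 7 are the highest for the 9 bone genes and for bone matrix, and the neutrophil list is highest in libraries 7 and 8, while its bar in library 1 is mostly Ltf. Car2 is the largest part of every osteoclast bar.

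Some markers of other cells around the nerve shared the group direction of the bone genes, and others shared their high libraries. The sum of the 9 bone genes without Spp1 was 3514.9 to 13197 normalized counts in wild type and 7443.7 to 16152.4 in the heterozygote-labelled libraries. For chondrocytes, 14 of 17 markers were tested, with a median log2 fold change of 0.40, above 0 in 11. The summed level was 22311.4 to 32020.8 in wild type and 35581.4 to 38759.2 in the heterozygote-labelled libraries. Col11a2 and Col2a1 gave the largest parts of it. 5 genes did not overlap, all higher, against 3.4% of all tested genes. Ihh (-0.52), Snorc (-0.17) and Matn4 (-0.16) had log2 fold changes below 0, and Col9a3 was near it, at 0.08. These 6 genes were named after their values were seen. Acan, the large cartilage proteoglycan, had a log2 fold change of 0.85 ± 0.15 (SE) and an adjusted limma p of 0.0632, and Col11a1 of 0.76 ± 0.17 with 0.160. Col10a1, Matn1 and Matn3 were not analysed here. Neutrophil markers, of which 6 of 12 were tested, summed to 145.0, 166.4 and 409.7 in wild-type libraries 4, 2 and 3 and to 2567 in library 1, where Ltf, lactoferrin, alone gave 2176.4. In heterozygote-labelled libraries 5 to 8 they summed to 1470, 737.1, 6433 and 4785. S100a8 and Ngp, made by neutrophils and their marrow precursors, had log2 fold changes of 4.09 and 3.73, with adjusted limma p of 0.0763 and 0.0920. In wild-type library 1 they were at 53.2 and 68.8, below all 4 heterozygote-labelled libraries (88.0 to 1145 and 114.1 to 1733).

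As a sum, osteoclast markers, the genes of bone-resorbing cells, covered overlapping ranges in the groups. Of 14 markers 9 were tested, and Calcr, Ocstamp, Dcstamp, Oscar and Atp6v0d2 were not analysed here. The summed level was 4360 to 6382 in wild type and 3876 to 6169 in the heterozygote-labelled libraries, with a median log2 fold change of 0.04. Car2 was the largest part of that sum in every library, at 2199.9 to 3086.1 in wild type and 1389.3 to 3260.4 in the others. Acp5, at 14.7 to 442.5 over the 8 libraries, was a small part, so the sum does not describe such markers. Car2 and Acp5 were named after their values were seen. Mmp9, a gelatinase that neutrophils also make, and Nfatc1, the main osteoclast transcription factor, had log2 fold changes of 1.29 and 0.53, with adjusted limma p of 0.330 and 0.279. Nfatc1 was the only 1 of the 9 without overlap, at 160.9 to 223.5 in wild type and 234.6 to 346.9 in the heterozygote-labelled libraries. Over all tested genes, 3.4% were apart in that direction. Fibroblast markers (10 of 10 tested) summed to 19889.5 to 34462.9 in wild type and 25028.7 to 32292.4 in the heterozygote-labelled libraries, with a median log2 fold change of 0.10. Col6a3 and Col3a1, collagen chains of connective tissue, had log2 fold changes of 0.85 and 0.39, with adjusted limma p of 0.163 and 0.373. Col6a3 was the only 1 of the 10 fibroblast markers without overlap, at 103.9 to 147.5 in wild type and 193.1 to 257.0 in the heterozygote-labelled libraries. B cell markers were few (3 of 10 tested) and low, at 35.7 to 58.4 summed in wild type and 61.9 to 121.5 in the heterozygote-labelled libraries. Erythroid markers (7 of 8 tested) were, as a sum, highest in the libraries high in osteocalcin. Their sum was 34445.3 in wild-type library 1, 29309.5 in library 7 and 8543 to 22396.2 elsewhere. They had a median log2 fold change of -0.37, and Hbb-bt of -0.50, with an adjusted limma p of 0.636, and Slc4a1 of 0.59, with 0.805. Macrophages (11 of 11 tested), neurons (10 of 10) and Schwann cells (9 of 9) had medians of -0.10, -0.02 and -0.10. Oligodendrocyte markers (8 of 8 tested) had a median log2 fold change of -1.17, and 3 fell past the threshold, among them Mobp (-1.47, adjusted limma p 0.0495) and Mog (-1.41, adjusted limma p 0.0354). The call of Mobp was lost in 8 of 17 alternative settings and that of Mog in 3, the fits without wild-type library 2 or 4 or heterozygote-labelled library 8. The part of any of these cells in the values of the 10 bone genes was not tested.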

How the data were processed

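RNA of 8 auditory nerve samples (RNA integrity number of at least 7, 50 ng input, poly(A) selection, strand-marking kit, per the labels' protocols) was sequenced, and 1 table was deposited. As judged from the values, its signal columns are gene read counts scaled by the authors with 1 size factor per sample. The submitters' processing notes name STAR, Partek, DESeq2 and the build mm10, with no role, and the counting method and annotation are not given in the sources used here. The authors' deposited columns also hold a p-value, an FDR, a ratio and the log2 ratio, besides a fold change score with a sign that was not used.

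In each column the worth of 1 read was taken as the step that made the largest share of values below 1000 whole multiples, within 0.05. Between 88.4% and 91.6% were whole, too few to treat the values as counts, so no count model was used. Tests used log2(value + 1) of the 14870 genes that reached 10 normalized counts in 4 or more libraries. Low genes show too small a fold change on this scale. Limma-trend was fitted to 8 libraries without covariates, with Benjamini-Hochberg adjustment over all tested genes and a threshold of 0.05. Exact permutation tests were two-sided, over 70 arrangements. On simulated data for this comparison (14870 genes, 200 changed), 65% of genes changed 2-fold and 87% of those changed 4-fold were recovered, with 7 unchanged genes called. The simulated noise was independent between genes, whereas most of the bone genes rose and fell together within libraries. These shares are averages over genes of all spreads, so they do not hold for genes as variable as Bglap and Bglap2. Transcript lengths and coordinates came from GENCODE M21 (GRCm38), and promoters from RefSeq. R 4.3.3, limma 3.58.1, Python 3.11.15, pandas 2.3.3, scipy 1.17.1 and matplotlib 3.10.9 were used.

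The 10 genes, the lists and the rule for named genes were chosen with earlier results of these data known. Named were the 10 genes, every gene of a list past the threshold or else the 2 with the largest absolute log2 fold change with a mean of 50 normalized counts or more, and the genes most like the 10. Some such genes are not reported here. The alternatives were pseudocounts of 0.1 and 10, no filter or a minimum of 50, upper-quartile scaling, quantile normalization, a loess correction for transcript length, low Xist (under 100 normalized counts) as a covariate or left out, and each library left out in turn. Nothing in the labels says more than that each library is 1 mouse, and p-values measure the spread between these 8 mice.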

Additional observations from a re-analysis of the deposited data

Results flagged for a closer look

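Each group of 4 libraries was checked for 1 library far from the other 3, by the gap to its nearest neighbour as a share of the range, set against Dixon's critical value. The gaps were taken on normalized counts, not on the log2 scale of the tests, and the flags hold for normalized counts only. Of 20 groups, 4 stood out, and chance gives about 1 in 20. The groups are not independent, since the genes share libraries and Bglap and Bglap2 share reads. In wild type, Bglap (0.832) and Sp7 (0.945) stood out because library 1 was high, at 4398.6 normalized counts against 300.5 to 987.6 for Bglap and at 463.3 against 173.2 to 189.3 for Sp7. In the libraries labelled heterozygote, Bglap (0.879) and Bglap2 (0.926) stood out because library 7 was high, at 3875.5 normalized counts against 930.0 to 1287.5 and at 2531.7 against 634.1 to 774.2. The log2 deviations of Bglap from the wild-type mean were 2.32, 0.17, -0.95 and -1.54 in wild-type libraries 1 to 4. In heterozygote-labelled libraries 5 to 8 they were 0.08, 0.37, 2.14 and 0.55. On that scale libraries 1 and 7 were less set apart in Bglap, and the check was not run there.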

How the results depend on the processing

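Over 17 alternatives, 0 of the 10 bone genes passed an adjusted limma-trend p of 0.05 in any. At an unadjusted p under 0.05 there were 1 to 8, against 1180 to 3413 of all tested genes. The median log2 fold change of the 10 stayed within the spread between libraries of its value of 0.49. It ran from 0.31 without wild-type library 4 to 0.83 without the libraries low in Xist. Both ends are partly built in, since these fits drop libraries that were the lowest or highest of their group in most of the 10. The direction of Bglap, Bglap2, Sp7, Ibsp, Alpl, Dmp1, Phex and Mepe was the same in all 17. The log2 fold change of Spp1 changed sign with upper-quartile scaling (-0.0102) and in 3 of the fits that left out a library, where it ran from -0.11 to 0.071. That of Runx2 changed sign with the length correction (-0.0874) and in 1 such fit, without wild-type library 2 (-0.055), and those fits ran from -0.055 to 0.19. In no case was the difference past the threshold. The count of all genes past the threshold was 12, and it was 7 with quantile normalization, 25 with the length correction and 0 to 221 when 1 library was left out, with 221 in the fit that lacked wild-type library 3, 7 and 6 in those that lacked heterozygote-labelled libraries 5 and 7, and 0 in those that lacked wild-type library 2 or 4 or heterozygote-labelled library 8. At an unadjusted p those 3 fits gave 1919, 1451 and 1180 genes. The rise of Smpd3 kept its direction in all 17 (0.86 to 1.08) but was past the threshold in 9, and it missed it with quantile normalization, with the length correction, without the libraries low in Xist and in 5 of the 8 fits that left out a library. No paired analysis was possible because the replicate numbers 1 to 8 are not shared between the groups.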

Other observations

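Heterozygote-labelled library 6, the highest in Spp1 at 53306.7 normalized counts, was also far above the others in Gpnmb, a glycoprotein of macrophages, osteoclasts and pigment cells. Its value there was 1679.9 normalized counts, and the other 7 libraries had 29.1 to 240.3. The osteoclast phosphatase Acp5, named after its values were seen, had its highest value, 442.5, in wild-type library 1. The next was 180.4 in heterozygote-labelled library 6, and the rest lay between 14.7 and 100.3. Mgp, matrix Gla protein, which inhibits mineral in cartilage and vessels, was also highest in wild-type library 1, at 9748.8 against 3243 to 5625, and had a log2 fold change of -0.30 between the genotypes as labelled.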
